A study of Mus musculus with 12 samples.

Results

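The genes examined were 9 members of the intrinsic apoptosis pathway, Bcl2, Bcl2l1, Mcl1, Bax, Bak1, Bcl2l11, Bid, Bad and Casp9, in mouse cerebellum. They were followed through every probe set that the platform annotation assigns to them, which gave 24 of the 22626 non-control probe sets and covered 8 of the 9 genes. No Bax probe set was listed under that name, so Bax was not analysed here. Bcl2 had 1 probe set, Bcl2l1 had 4, Mcl1 had 6, Bak1 had 2, Bcl2l11 had 5, and Bid, Bad and Casp9 had 2 each. None of the 24 was shared with another gene. Casp9 was the caspase among the listed genes, and 7 other caspases are described with the rest of the pathway.

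The 12 Affymetrix arrays held cerebellar total RNA of single BALB/c mice in 4 groups of 3. These were Npc1-/- mice at postnatal day 49 (null P49), Npc1+/+ mice at postnatal day 49 (wild-type P49), Npc1-/- mice at postnatal day 21 (null P21) and Npc1+/+ mice at postnatal day 21 (wild-type P21). No animal was treated, and the design labels 11 animals female and null P49 replicate 1 male. The nature of the Npc1 allele is not given in the sources used here. Npc1 encodes a lysosomal protein that exports cholesterol, and its loss in mice is a model of Niemann-Pick disease type C, in which cerebellar Purkinje cells die.

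BCL2 family proteins control whether the outer mitochondrial membrane stays intact. Anti-apoptotic members (Bcl2, Bcl2l1, Mcl1) bind and hold back the effectors Bax and Bak1, which form pores when released. BH3-only proteins (Bcl2l11, which encodes BIM, and Bid and Bad) tip that balance towards pore formation. Cytochrome c that leaves through the pores then activates the initiator caspase encoded by Casp9. Much of this control is exerted on the proteins, which arrays of RNA do not measure.

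Levels below are quantile-normalized log2(intensity + 16) values, and a difference is on that log2 scale with limma's standard error. Because each probe set binds with its own strength, a level served across probe sets only to mark dim ones, to choose the brightest of a gene and to sum markers, and does not rank genes by abundance. Npc1 itself (probe set 1423086_at) lay between 8.25 and 10.53 on null arrays and between 11.06 and 11.75 on wild-type arrays, without overlap. Whether that probe set lies in an altered stretch of the gene is not given. The Purkinje cell genes Pcp2 and Calb1 and the granule neuron genes Gabra6 and Cbln1 were bright on every array, between 15.94 and 17.29. Xist stood above 15 on 9 arrays and below 14 on 3 arrays labelled female. It read 13.01 and 13.36 on null P21 replicates 2 and 3, and far lower, 9.28, on wild-type P21 replicate 2. These 3 arrays had the highest levels of the Y-linked gene Eif2s3y, at 9.25, 12.67 and 12.72 in the same order. The array labelled male, null P49 replicate 1, had Xist at 15.63 and Eif2s3y at 7.93, so its sex label is in doubt as well. Below, the 3 doubtful arrays, or arrays of doubtful sex label, are only those with low Xist, all of them P21 arrays. Null P49 replicate 1 was kept in the fits without them. Values of single members in comparisons that use P21 arrays are mostly given with and without these 3 arrays.

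Of the 24 probe sets, 7 had a mean below the 40th percentile of all probe sets, at log2 9.93. These were the Bcl2 probe set, Bcl2l1 1426050_at, Bak1 1425716_s_at, Bcl2l11 1456006_at and 1426334_a_at, and both Bid probe sets. The pooled SD between arrays of a group had a median of 0.61 over these 7 and 0.23 over the other 17, beside 0.31 over all probe sets. By Affymetrix convention the suffixes _x_at and _s_at mark probe sets that can bind more than a single transcript, so the 3 Mcl1 _x_at probe sets and Bak1 1425716_s_at are less certain. Detection calls were not used here, so it is not known which of the 7 lie above background.

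The promoters of Bcl2l11 and Bid are shown because these genes held the member probe sets that passed the test. Each sequence runs 5′ to 3′ on the gene's strand, from 250 bases before to 50 bases after a RefSeq transcription start, in build GRCm38.p6. Capitals mark motif matches on either strand, which do not overlap each other. The FOXO site was searched as GTAAACA. The box that nuclear factor Y binds was searched as CCAAT, and the box that SP1 binds (the GC box) as GGGCGG.
Bcl2l11 promoter 1, chr2:128125788-128126087, plus strand: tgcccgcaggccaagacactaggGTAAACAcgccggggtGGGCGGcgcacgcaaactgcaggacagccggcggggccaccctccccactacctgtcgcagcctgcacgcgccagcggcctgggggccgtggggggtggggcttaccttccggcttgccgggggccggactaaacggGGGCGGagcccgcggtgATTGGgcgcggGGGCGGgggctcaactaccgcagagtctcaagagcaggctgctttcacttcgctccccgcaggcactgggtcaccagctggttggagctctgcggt
Bcl2l11 promoter 2, chr2:128127325-128127624, plus strand: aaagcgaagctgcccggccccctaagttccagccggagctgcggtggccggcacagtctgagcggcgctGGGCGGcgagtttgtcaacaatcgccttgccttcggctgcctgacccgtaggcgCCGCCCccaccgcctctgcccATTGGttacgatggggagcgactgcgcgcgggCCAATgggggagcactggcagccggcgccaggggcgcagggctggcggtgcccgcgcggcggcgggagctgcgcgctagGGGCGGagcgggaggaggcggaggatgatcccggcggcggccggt
Bid promoter 1, chr6:120916775-120917074, minus strand: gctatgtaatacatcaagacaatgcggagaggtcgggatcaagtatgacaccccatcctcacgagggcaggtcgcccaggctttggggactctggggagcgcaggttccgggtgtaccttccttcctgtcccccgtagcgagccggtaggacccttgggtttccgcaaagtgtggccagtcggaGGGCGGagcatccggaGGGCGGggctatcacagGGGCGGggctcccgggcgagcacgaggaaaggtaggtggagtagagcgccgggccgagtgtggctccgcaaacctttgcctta
Bcl2l11 promoter 1 holds 1 FOXO match, 1 CCAAT box and 3 GC boxes. Bcl2l11 promoter 2 holds 2 CCAAT boxes and 3 GC boxes, and the Bid promoter holds 3 GC boxes alone. Of the 32851 mouse promoters in the RefSeq table, 3.65% hold the FOXO match, 37.4% a CCAAT box and 35.7% a GC box. Among the 13 promoters of the 9 listed genes, the FOXO match was found in 1 and a GC box in 8. AP-1 (TGANTCA, in 7.81% of all promoters) and cAMP response element (TGACGTCA, in 1.79%) matches were found in none of the 13, and an E-box (CACGTG, in 7.15%) was found in the Bax promoter. GC content was 71%, 74% and 63.3% in the promoters printed above, beside a median of 52.7% over all promoters. These matches describe the letters of these windows and do not show that a factor binds there.

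In null cerebellum at P49, 2 member probe sets rose relative to wild type, and both belong to BH3-only genes. One is a probe set of Bcl2l11 (BIM), 5.03-fold higher, and the other a probe set of Bid, 4.38-fold higher. They make up 8.33% of the 24 member probe sets, where 0.941% of all probe sets were called higher and 1.41% were called in either direction. No anti-apoptotic, effector or caspase member passed the threshold in either direction. Of the 24 differences 19 were positive and 5 negative, with a median of 0.14 against -0.02 over all probe sets, but 5 of the smallest (0.05 or less) changed sign under median centring. Values did not overlap between the genotypes for 6 members that were higher, or 25.0%, where 9.07% of all probe sets behaved so. These 6 were 3 of Bcl2l11, 2 of Mcl1 and 1 of Bid, and probe sets of the same gene are not independent. For 1 member, or 4.17%, all null values were lower, beside 9.88% of all probe sets.

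**Figure D1:**
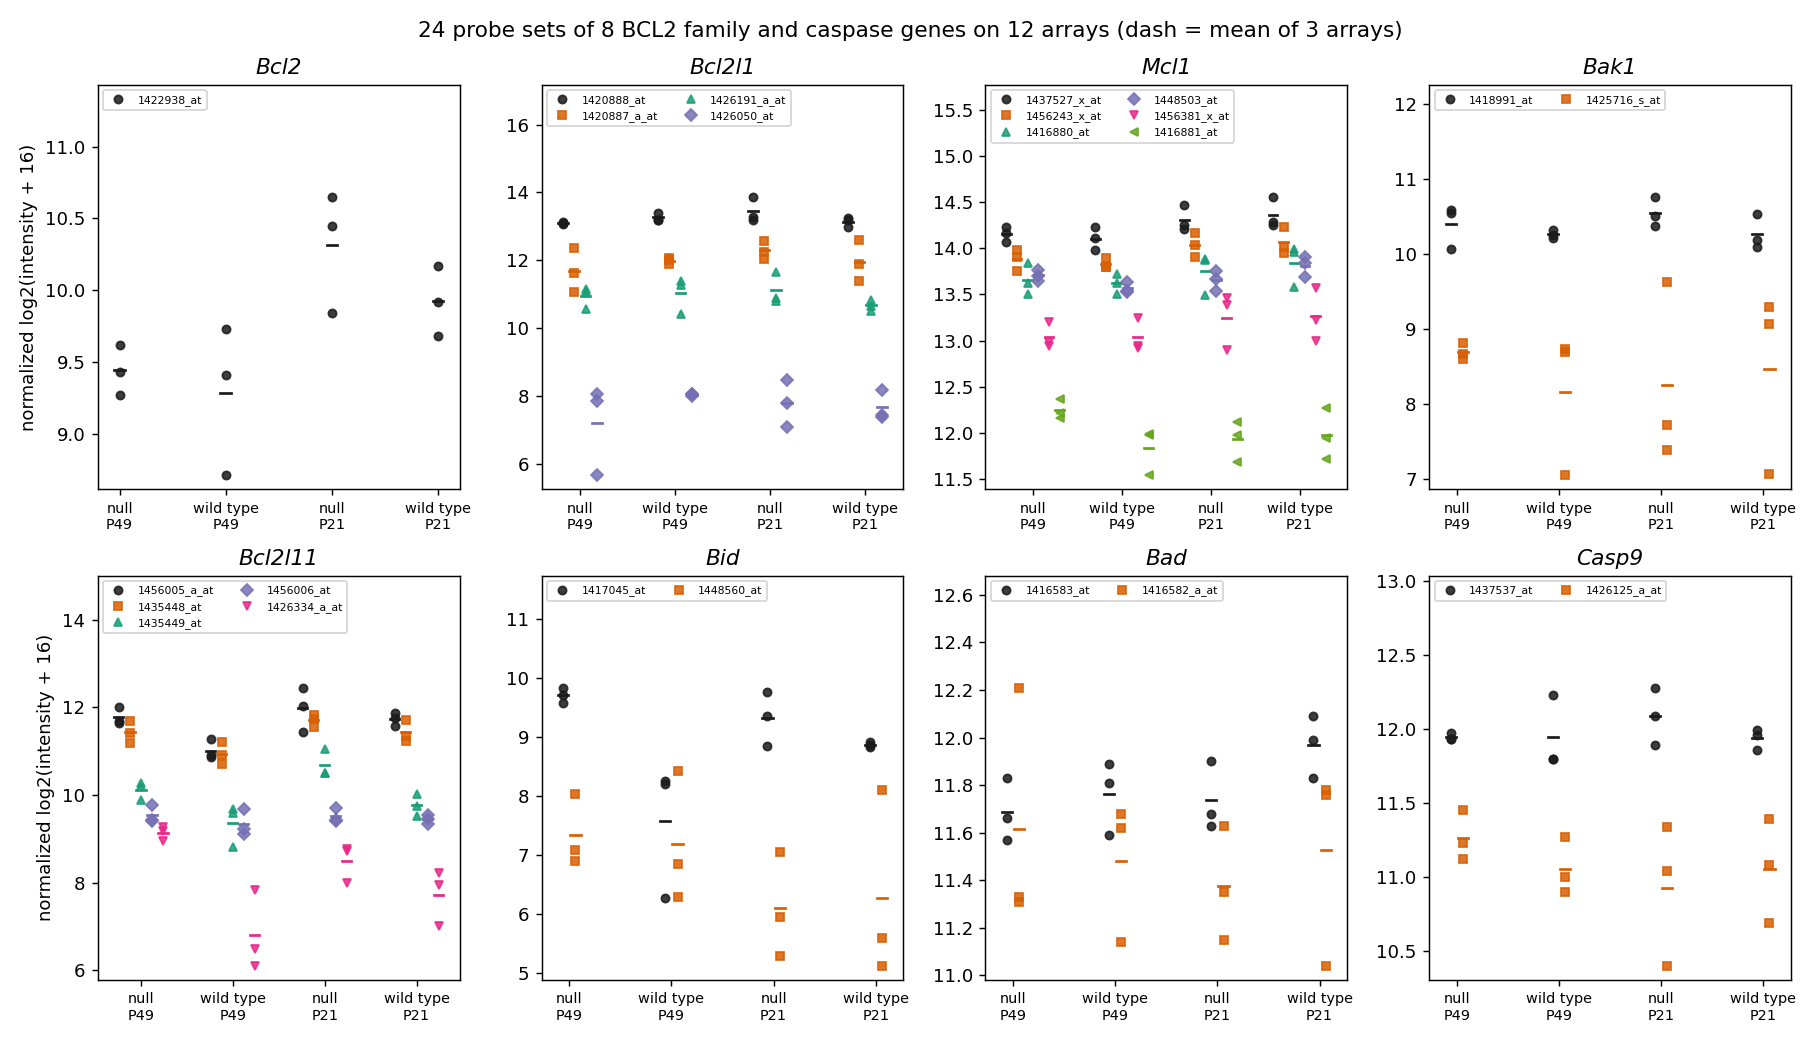
Normalized log2(intensity + 16) of the 24 member probe sets, 1 panel per gene, with 1 point per array, groups along the x axis and a dash at each mean of 3 arrays. In the Bcl2l11 and Bid panels the probe sets 1426334_a_at and 1417045_at lie higher on the null P49 arrays than on the wild-type P49 arrays, while most other probe sets overlap between these groups.

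Bcl2l11 1426334_a_at read 8.96, 9.18 and 9.26 on null P49 arrays and 6.10, 6.49 and 7.82 on wild-type P49 arrays. It read 8.76, 8.00 and 8.71 on null P21 arrays and 7.94, 8.22 and 7.02 on wild-type P21 arrays. The null P49 arrays were thus the highest of all 12, closely grouped, and the wild-type P49 arrays were spread and mostly the lowest. At P49 the difference was 2.33 ± 0.52 with a 95% interval of 1.21 to 3.45, and limma's adjusted p was 0.0422. As deposited, the intensities were 502.5, 614 and 610.5 on null P49 arrays and 52.5, 74.5 and 205.5 on wild-type P49 arrays, all below the 959 that marks the 40th percentile.

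The other 4 Bcl2l11 probe sets were also higher on average in null P49 cerebellum, by smaller amounts that did not pass the adjusted threshold. Probe set 1456005_a_at read 11.64, 11.68 and 12.00 on null P49 arrays and 11.28, 10.86 and 10.90 on wild-type P49 arrays, without overlap. Its difference was 0.76 ± 0.22 (95% interval 0.28 to 1.24, adjusted p = 0.167). Probe set 1435449_at read 9.88, 10.20 and 10.27 on null P49 arrays and 8.82, 9.58 and 9.69 on wild-type P49 arrays, again without overlap. Here the difference was 0.75 ± 0.29 with an adjusted p of 0.4. Probe set 1435448_at overlapped slightly, with 11.18, 11.42 and 11.68 on null P49 arrays and 10.71, 10.91 and 11.20 on wild-type P49 arrays (0.49 ± 0.19, adjusted p = 0.4). For 1456006_at the difference was 0.21 ± 0.28 (95% interval -0.40 to 0.81). Thus all 5 probe sets of the gene had positive P49 differences, also under values as deposited and median centring; the smallest was 0.21 and the largest 2.33. Pairs of them correlated with r between 0.17 and 0.88 over the 12 arrays, a description of arrays that share the group differences.

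Bid, which is cleaved by caspase-8 to link death receptors to mitochondria, had 1 called probe set and 1 dimmer probe set with a wide interval. Probe set 1417045_at read 9.57, 9.72 and 9.84 on null P49 arrays and 8.21, 8.25 and 6.27 on wild-type P49 arrays. It read 9.36, 8.85 and 9.77 on null P21 arrays and 8.86, 8.84 and 8.91 on wild-type P21 arrays. The P49 groups did not overlap, and wild-type P49 replicate 3 lay far below the other wild-type arrays. The P49 difference was 2.13 ± 0.49 (95% interval 1.09 to 3.18) with a limma adjusted p of 0.0478. Probe set 1448560_at, dim with a mean of 6.72, read 7.09, 8.03 and 6.90 on null P49 arrays and 8.42, 6.84 and 6.29 on wild-type P49 arrays. Its groups overlapped, and the difference of 0.16 ± 0.83 left an interval of -1.63 to 1.94. Across the 12 arrays the Bid probe sets correlated at r = 0.01.

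**Figure D2:**
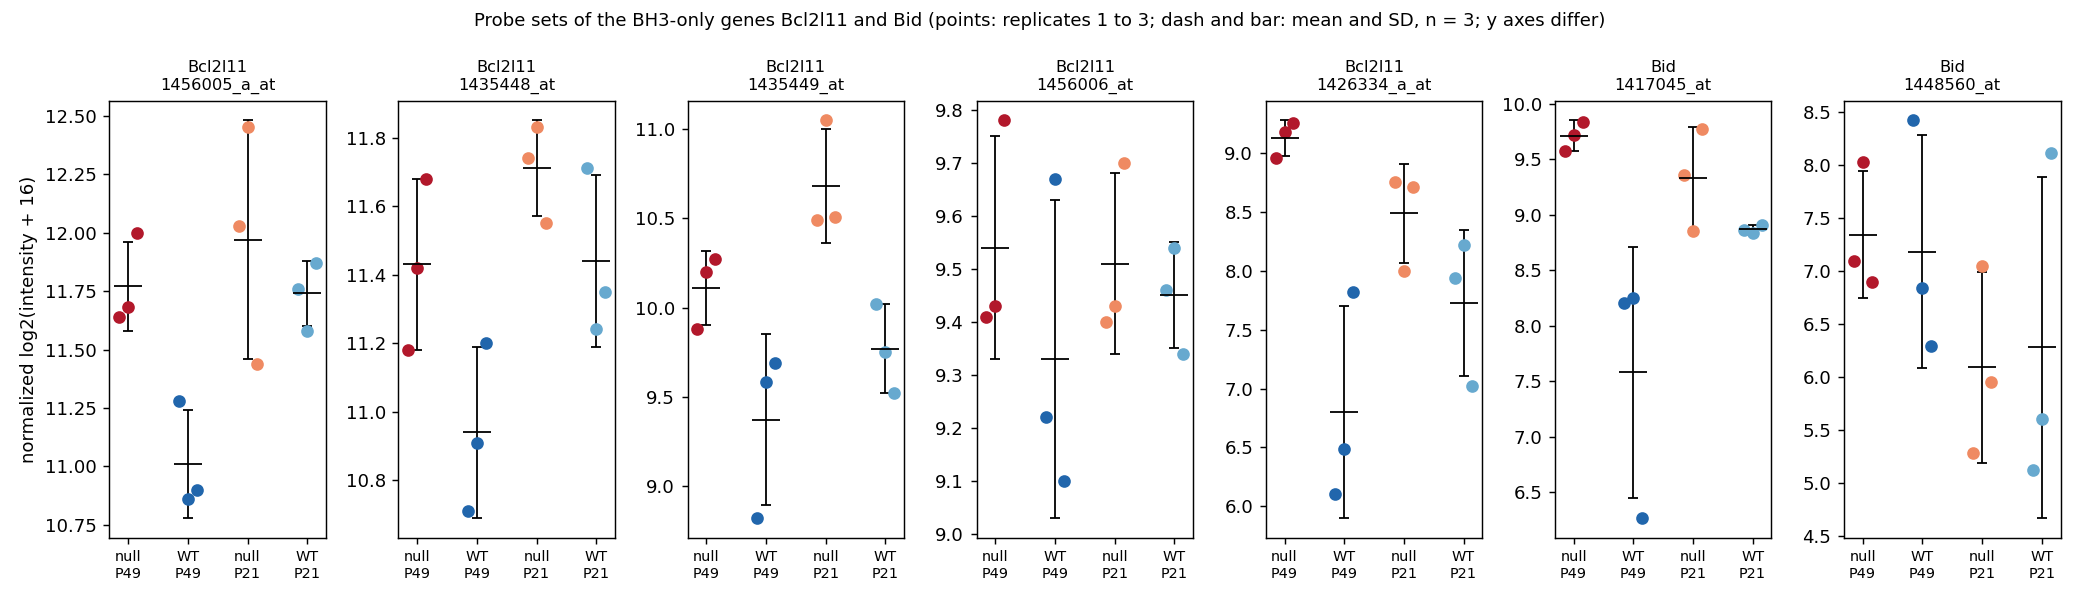
Normalized log2(intensity + 16) of the 5 Bcl2l11 and 2 Bid probe sets in the 4 groups (WT is wild type), with points for replicates 1 to 3 from left to right and a dash and bar for the mean and SD (n = 3); the y axes differ. The null P49 points sit above the wild-type P49 points without overlap in 1456005_a_at, 1435449_at, 1426334_a_at and 1417045_at.

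Both calls lay close to the threshold. Deviations of same-numbered null P49 and wild-type P49 arrays from their group means correlated weakly (r = 0.17, 0.11 and 0.12). With the replicate number as a block in the fit to all 12 arrays no member was called (268 of all probe sets, or 1.18%, were). The blocked limma adjusted p was 0.0851 for Bcl2l11 1426334_a_at and 0.0916 for Bid 1417045_at. The calls also depended on single arrays. The Bcl2l11 1426334_a_at call held in 3 fits, with adjusted p of 0.0175 without replicate 3 of the wild-type P49 group, 0.0345 without replicate 2 of the null P21 group and 0.039 without replicate 3 of the wild-type P21 group. It was lost in the other 9 fits, at 0.0524 and 0.0554 without null P21 replicates 1 and 3 and at 0.0613 and 0.0553 without wild-type P21 replicates 1 and 2. Without null P49 replicates 1, 2 and 3 in turn it was 0.0943, 0.174 and 0.196, and without wild-type P49 replicates 1 and 2 it was 0.185 and 0.159. The Bid 1417045_at call held in 1 of the 12 fits, without null P21 replicate 2 (adjusted p = 0.0359). Over the other 11 fits, each without 1 of the other 11 arrays, it lay between 0.0502 (without wild-type P49 replicate 2) and 0.216 (without null P49 replicate 3). Without wild-type P49 replicate 3, the low array, the Bid difference was 1.48 with an adjusted p of 0.106. The difference stayed positive in every one of these fits, between 1.98 and 2.84 for Bcl2l11 1426334_a_at and between 1.48 and 2.47 for Bid 1417045_at.

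**Figure D3:**
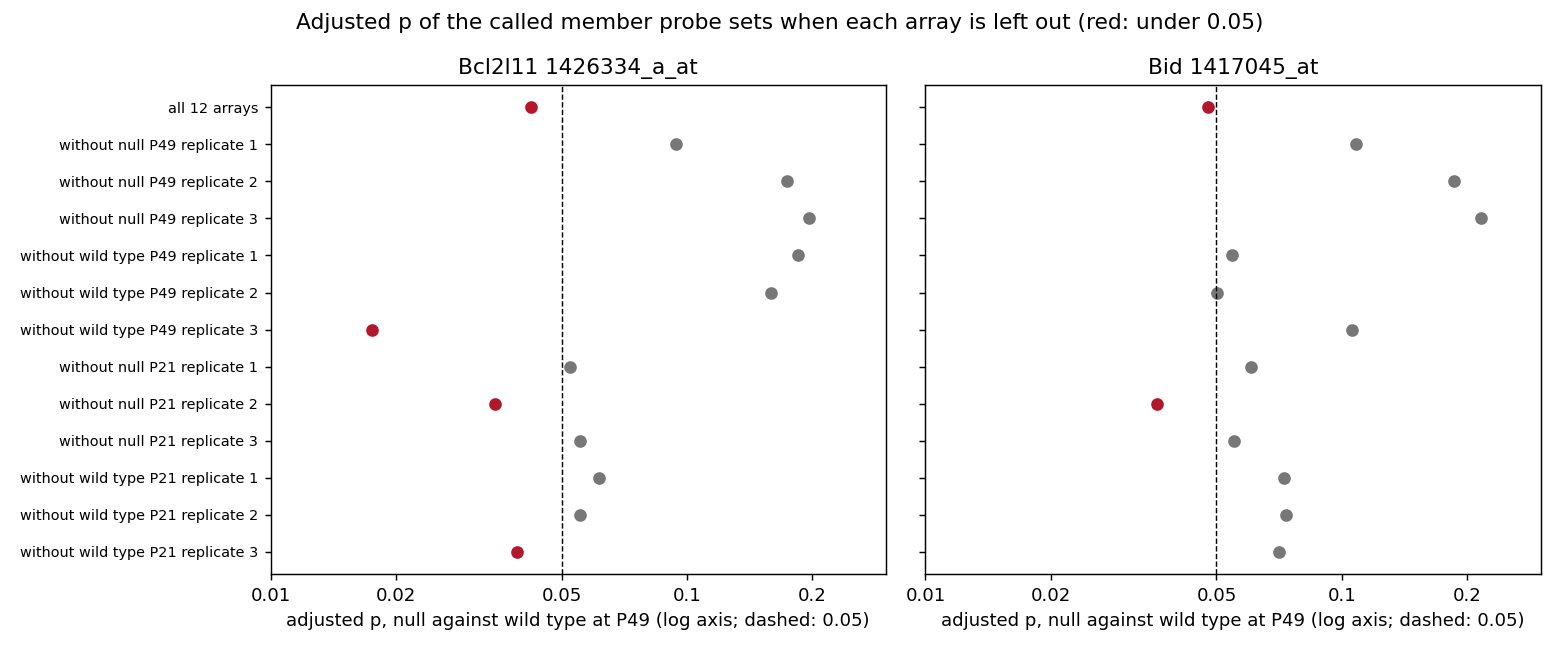
Adjusted p (log axis, dashed line at 0.05) for null against wild type at P49 of the 2 called member probe sets, with all 12 arrays and with each array left out in turn. Bcl2l11 1426334_a_at stays under the line in 3 of 12 fits and Bid 1417045_at in 1 of 12.

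Without the 3 arrays of doubtful sex label, all of them P21 arrays, the P49 differences were 2.33 for Bcl2l11 1426334_a_at and 2.14 for Bid 1417045_at, with adjusted p of 0.0544 and 0.0612. In that fit Bcl2l11 1456005_a_at passed instead, at 0.76 ± 0.16 and an adjusted p of 0.0285. It passed as well without null P21 replicate 2 alone (0.0476). A fit to the 6 P49 arrays by themselves also called it, at a limma adjusted p of 0.0467. Null P49 replicate 1, labelled male but with high Xist, stayed in each of these fits.

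Bad, a BH3-only gene whose protein is kept inactive by growth factor signalling, showed no called difference. Probe set 1416583_at read 11.66, 11.83 and 11.57 on null P49 arrays and 11.59, 11.89 and 11.81 on wild-type P49 arrays (-0.08 ± 0.14, interval -0.39 to 0.23). Probe set 1416582_a_at read 12.21, 11.33 and 11.31 on null P49 arrays and 11.14, 11.62 and 11.68 on wild-type P49 arrays (0.14 ± 0.27, interval -0.44 to 0.72). The groups overlapped in both.

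Among the anti-apoptotic genes, Bcl2 read 9.27, 9.62 and 9.43 on null P49 arrays and 9.41, 8.71 and 9.73 on wild-type P49 arrays. The groups overlapped, and the difference was 0.16 ± 0.32 with an interval of -0.54 to 0.86. Bcl2l1, which encodes BCL-XL, a survival protein of mature neurons, had 4 negative differences between -0.84 and -0.10, none of them called (smallest adjusted p 0.795). All 4 were negative under values as deposited and median centring too. Probe set 1420888_at read 13.12, 13.09 and 13.08 on null P49 arrays and 13.18, 13.20 and 13.40 on wild-type P49 arrays. This is the member whose null values were all lower, with a difference of -0.17 ± 0.15 (interval -0.49 to 0.16). The probe set with the lowest estimate, 1426050_at, owed it to null P49 replicate 2 at 5.66, where the other 2 null P49 arrays read 7.86 and 8.05 and the wild-type P49 arrays 8.06, 7.99 and 8.05.

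Mcl1 encodes a short-lived anti-apoptotic protein and had 6 probe sets. Probe set 1416881_at read 12.37, 12.16 and 12.21 on null P49 arrays and 11.98, 11.99 and 11.54 on wild-type P49 arrays, without overlap. The difference was 0.41 ± 0.18 (interval 0.03 to 0.79) with an adjusted p of 0.472. Probe set 1448503_at also did not overlap, with 13.77, 13.70 and 13.65 on null P49 arrays and 13.64, 13.53 and 13.54 on wild-type P49 arrays (0.14 ± 0.09, adjusted p = 0.769). The other 4 lay between 0 and 0.05 and turned negative under median centring. Their intervals reached at most 0.37 from 0. That limit holds for these 4 probe sets and not for 1416881_at, whose interval reached 0.79.

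Bak1 1418991_at read 10.54, 10.07 and 10.58 on null P49 arrays and 10.25, 10.32 and 10.21 on wild-type P49 arrays, which overlap (0.14 ± 0.22, interval -0.34 to 0.62). The dim 1425716_s_at had a difference of 0.54 ± 0.70. Casp9 1437537_at read 11.93, 11.93 and 11.97 on null P49 arrays and 11.80, 12.23 and 11.80 on wild-type P49 arrays, with a difference of 0 ± 0.15 (interval -0.32 to 0.32). Casp9 1426125_a_at read 11.45, 11.23 and 11.12 on null P49 arrays and 11.27, 11.00 and 10.90 on wild-type P49 arrays, with a difference of 0.21 ± 0.25. Neither effector nor caspase was called, and their groups overlapped.

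By role, the 9 BH3-only probe sets had a median P49 difference of 0.49, with 8 positive and 2 called. Of these 9, 5 belong to Bcl2l11, and the median is the value of Bcl2l11 1435448_at. The 2 Bid differences were 2.13 and 0.16, and the 2 Bad differences were -0.08 and 0.14. Probe sets of the same gene are not independent, so these medians do not describe a role apart from its genes. The 11 anti-apoptotic probe sets had a median of 0.04, with 7 positive and none called. At an unadjusted p under 0.05, 6 members passed and all were higher, namely 4 of Bcl2l11, 1 of Bid and 1 of Mcl1, where 5.04% of all probe sets passed in that direction.

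**Figure D4:**
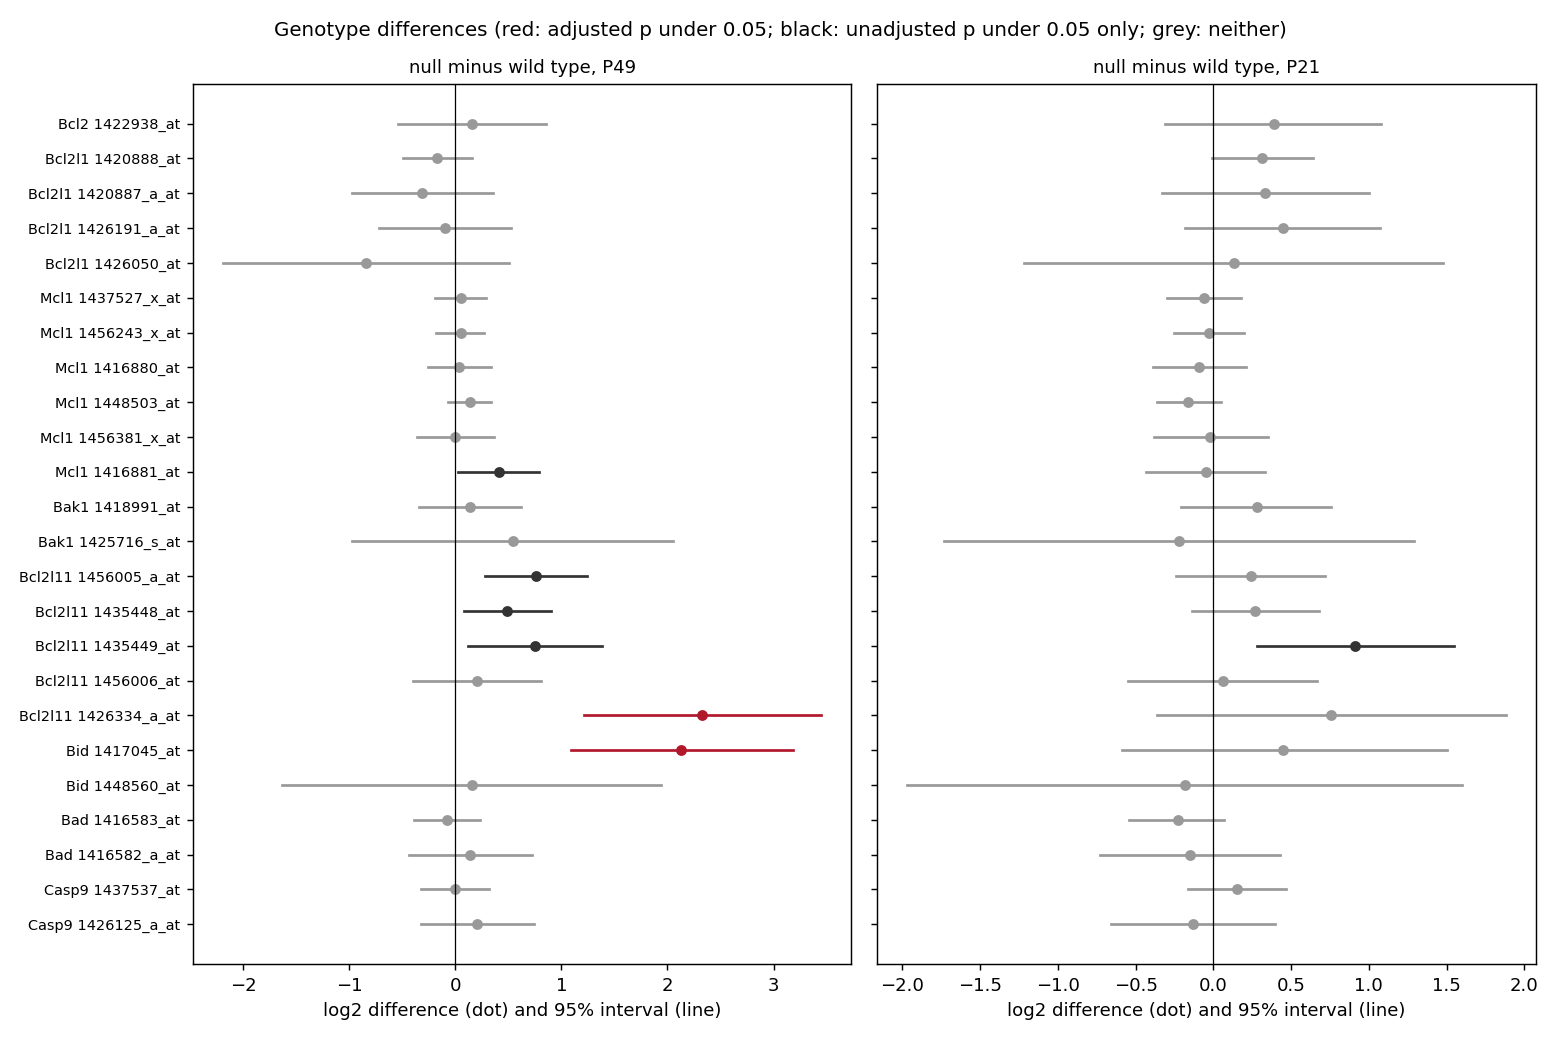
Null minus wild-type log2 differences (dots) with 95% intervals (lines) of the 24 member probe sets at P49 (left) and P21 (right); red marks an adjusted p under 0.05, black an unadjusted p under 0.05 alone. At P49 Bcl2l11 1426334_a_at and Bid 1417045_at lie farthest right, at 2.33 and 2.13, and at P21 no probe set is red.

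At P21 no member differed between the genotypes by limma's adjusted p, where 7 of all probe sets (0.0309%) were called, and 1 member passed at an unadjusted p under 0.05 (7.99% of all did). That member was again a Bcl2l11 probe set. Bcl2l11 1435449_at read 10.49, 11.05 and 10.51 on null P21 arrays and 10.02, 9.75 and 9.52 on wild-type P21 arrays, without overlap. Its difference was 0.91 ± 0.29 (interval 0.28 to 1.55), with an unadjusted p of 0.00781 and an adjusted p of 0.496. It was the 1 member whose null values were all higher (4.17% of members, beside 5.83% of all probe sets), and no member had all null values lower (5.15% of all). All 5 Bcl2l11 probe sets had positive P21 differences, between 0.06 and 0.91, and these stayed positive under the other scalings. The member median was 0.09, beside 0 over all probe sets.

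Of the other genes at P21, Bcl2l1 had 4 positive differences between 0.13 and 0.45. For probe set 1420888_at the values were 13.27, 13.87 and 13.20 on null P21 arrays and 12.97, 13.24 and 13.19 on wild-type P21 arrays, a difference of 0.31 ± 0.15 (interval -0.01 to 0.64). Null P21 replicate 2 was the high array there. Without the 3 doubtful arrays, 7 of the 24 differences at P21 changed sign, all of them 0.39 or smaller, and the difference of Bcl2l11 1435449_at was 0.72 ± 0.46 with an adjusted p of 0.817. In that fit the difference was 0.19 ± 0.14 for Bcl2l1 1420888_at, and the 5 Bcl2l11 differences lay between 0 and 1.27. The fit left 1 null P21 array, whose spread was taken from the other groups.

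The change of the genotype difference between ages was called for no member, where 58 of all probe sets (0.256%) were called, and 3 members passed at an unadjusted p under 0.05 (7% of all did). These were Bid 1417045_at (1.68 ± 0.69, adjusted p = 0.636), Bcl2l1 1420888_at (-0.48 ± 0.22, adjusted p = 0.691) and Mcl1 1448503_at (0.29 ± 0.13, adjusted p = 0.697). For Bcl2l11 1426334_a_at the interaction was 1.57 ± 0.74 with an interval of -0.01 to 3.15 (adjusted p = 0.718). The P49 rises of Bcl2l11 and Bid were therefore not shown to differ from the P21 differences of 0.76 ± 0.52 and 0.45 ± 0.49, which were 1.27 ± 0.82 and 0.48 ± 0.77 without the doubtful arrays. All 4 Bcl2l1 interaction terms were negative, between -0.97 and -0.48, and stayed negative under the other scalings. Without the doubtful arrays they lay between -0.87 and -0.33, with -0.35 ± 0.17 for 1420888_at. The interaction was then 1.67 ± 0.93 for Bid 1417045_at, 0.33 ± 0.14 for Mcl1 1448503_at and 1.06 ± 0.99 for Bcl2l11 1426334_a_at, and none of these passed the adjusted threshold.

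Between P21 and P49 no member was called in null cerebellum by limma's adjusted p, where 559 of all probe sets (2.47%) were called, and 2 members passed at an unadjusted p under 0.05 (15.2% of all did). Bcl2 1422938_at read 9.27, 9.62 and 9.43 on null P49 arrays and 9.84, 10.65 and 10.45 on null P21 arrays, without overlap. The difference was -0.87 ± 0.32 (interval -1.57 to -0.17, adjusted p = 0.212). Without the doubtful arrays, null P21 replicates 2 and 3 among them, it was -0.41 ± 0.48. Bcl2l1 1420888_at read 13.12, 13.09 and 13.08 on null P49 arrays and 13.27, 13.87 and 13.20 on null P21 arrays (-0.35 ± 0.15, adjusted p = 0.295), and -0.17 ± 0.13 without the doubtful arrays. All values were lower at P49 for 3 members (12.5%, beside 9.69% of all probe sets) and higher for 2 (8.33%, beside 8.80%). Those lower were the Bcl2 probe set, Bcl2l1 1420888_at and Bcl2l11 1435449_at (-0.57 ± 0.29, and -0.37 ± 0.44 without the doubtful arrays). Those higher were Mcl1 1416881_at (0.32 ± 0.18) and Bcl2l11 1426334_a_at (0.64 ± 0.52), which differed by 0.57 ± 0.24 and 0.38 ± 0.78 without the doubtful arrays. Probe sets of these genes went both ways, with 2 of 5 Bcl2l11 and 2 of 6 Mcl1 differences positive.

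In wild-type cerebellum no member was called between the ages, where 63 of all probe sets (0.278%) were called. At an unadjusted p under 0.05, 6 members passed, all lower at P49, beside 4.24% of all probe sets in that direction. The smallest p belonged to Bcl2l11 1456005_a_at, with 11.28, 10.86 and 10.90 on wild-type P49 arrays and 11.76, 11.58 and 11.87 on wild-type P21 arrays. Its groups did not overlap, and the difference was -0.72 ± 0.22 (interval -1.20 to -0.24, unadjusted p = 0.00601, adjusted p = 0.33). Without the doubtful arrays it was -0.80 ± 0.18 with an adjusted p of 0.0817. The others were Bcl2l11 1435448_at (-0.50 ± 0.19), Bid 1417045_at (-1.30 ± 0.49), and Mcl1 1437527_x_at (-0.26 ± 0.11), 1456243_x_at (-0.23 ± 0.11) and 1448503_at (-0.24 ± 0.09). Without wild-type P21 replicate 2 and the other doubtful arrays, Bcl2l11 1435448_at differed by -0.59 ± 0.21 and Bid 1417045_at by -1.32 ± 0.58. The 3 Mcl1 probe sets differed by -0.30 ± 0.11, -0.29 ± 0.10 and -0.30 ± 0.09 in that fit. For the same 6 members all wild-type P49 values were lower (25.0%, beside 8.42% of all probe sets), and no member had all values higher (8.60% of all). All 5 Bcl2l11 and all 6 Mcl1 probe sets had negative differences, between -0.93 and -0.12 and between -0.26 and -0.14, and all 11 stayed negative under the other scalings. The wild-type P49 arrays enter both this comparison and the genotype comparison at P49, so low values on them appear in both. Myelin and oligodendrocyte markers were also lower in wild-type cerebellum at P49, with 3 of 8 genes called lower, none positive and a median of -0.80 (0.307% of all genes were called). Among these were Ugt8a, an enzyme of myelin lipid synthesis (-1.43 ± 0.20), and Mog, a myelin surface protein (-1.31 ± 0.20). The least changed were Mbp (-0.01 ± 0.09) and Mobp (-0.27 ± 0.19). The summed intensity of the 8 genes lay between 394341 and 419498 on wild-type P49 arrays and between 513069 and 614166 on wild-type P21 arrays. In null cerebellum the same 8 markers had a median of -0.43 between the ages, with 2 called lower and 1 positive (2.75% of all genes were called). For wild-type cerebellum, other marker lists were lower at P49 too. Choroid plexus markers had a median of -1.47 with 0 of 4 positive, and endothelium markers -0.33 with 1 of 6 positive, none of them called. The part of these cell types in the Bcl2l11 and Mcl1 differences was not tested.

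**Figure D5:**
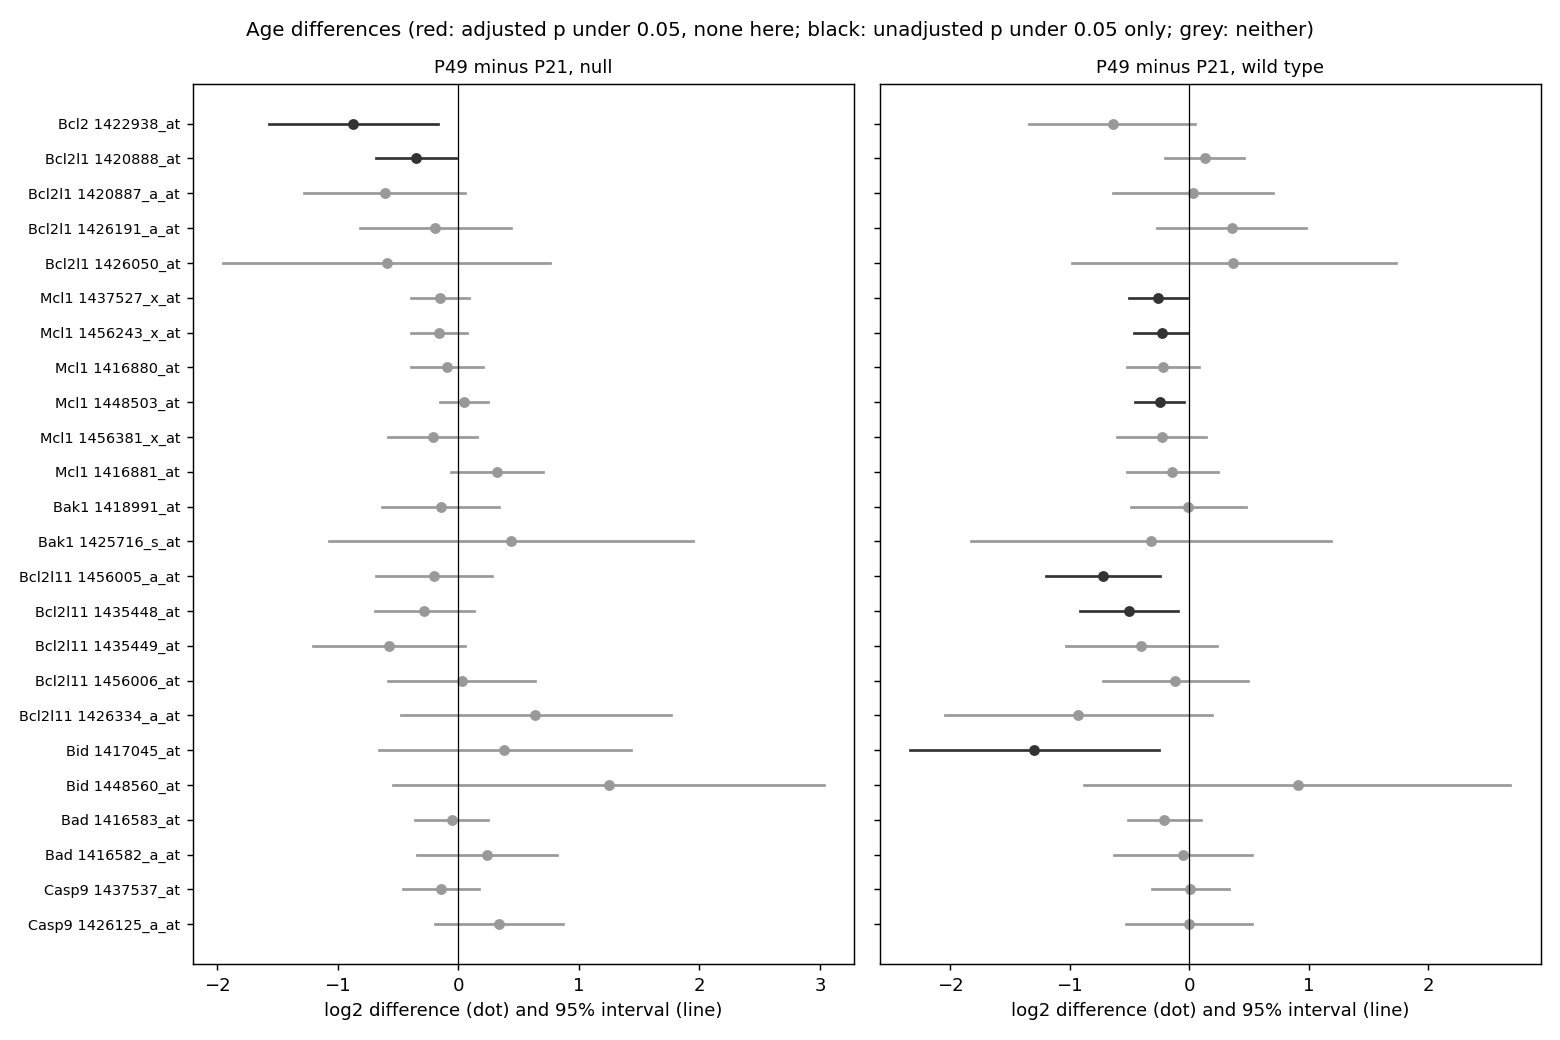
P49 minus P21 log2 differences (dots) with 95% intervals (lines) of the 24 member probe sets in null (left) and wild-type (right) cerebellum; black marks an unadjusted p under 0.05, and no probe set reached an adjusted p under 0.05. In wild type the 5 Bcl2l11 and 6 Mcl1 dots all lie left of 0.

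Beyond these genes, a list of 72 further apoptosis genes had 61 with a probe set, each read from its brightest. At P49, 1 of the 61 rose in null cerebellum and none fell, where 1.62% of all genes were called, and the list median was 0.09 beside -0.02. The gene that rose was Jun, a transcription factor of the AP-1 complex that stress kinases activate. Jun 1417409_at read 13.76, 14.11 and 14.08 on null P49 arrays and 13.01, 13.08 and 13.21 on wild-type P49 arrays, well apart. The difference was 0.88 ± 0.11 with a limma adjusted p of 5.92e-04, and it passed in every alternative run. A further Jun probe set, 1448694_at, gave 0.51 ± 0.16 (adjusted p = 0.21). At P21 the Jun difference was 0.10 ± 0.11, and its interaction of 0.79 ± 0.16 missed the threshold (adjusted p = 0.0637).

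Of the other caspases, 7 were analysed and none was called at P49, although all 7 differences were positive with a median of 0.37. Casp12, a caspase linked to stress of the endoplasmic reticulum in mice, read 10.37, 10.52 and 10.47 on null P49 arrays and 9.81, 9.88 and 10.03 on wild-type P49 arrays (0.55 ± 0.24, adjusted p = 0.471). Casp8, the initiator caspase of death receptors, read 10.38, 10.00 and 9.96 on null P49 arrays and 9.47, 9.53 and 9.75 on wild-type P49 arrays (0.53 ± 0.30, adjusted p = 0.659). Neither overlapped between the genotypes. Casp2 differed by 0.10 ± 0.16.

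The other BH3-only genes were not called at P49, with 4 of 6 positive. Bbc3 (PUMA), a target of p53, differed by 0.36 ± 0.27, Pmaip1 (NOXA) by 0.73 ± 1.02 and Bik by -0.62 ± 0.97. Of the other anti-apoptotic genes, Bcl2l2 (BCL-W) differed by -0.08 ± 0.12 and Bcl2l10 by 0.53 ± 0.51. The BCL2-like genes Bok, Bcl2l13 and Bcl2l15 differed by 0.14 ± 0.18, 0.17 ± 0.15 and 0.26 ± 0.69. None of these passed, and the errors are widest for the dim probe sets of Pmaip1 and Bik.

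Downstream of the mitochondrion, Cycs (cytochrome c) read 16.03, 15.85 and 15.52 on null P49 arrays and 16.11, 16.19 and 16.23 on wild-type P49 arrays, lower without overlap and not called (-0.38 ± 0.14, adjusted p = 0.365). Vdac1, a channel of the outer membrane, differed by -0.13 ± 0.09 and Htra2, a mitochondrial protease, by 0.28 ± 0.20. Of the inhibitors of apoptosis, Naip2 differed by 1.93 ± 0.62 (adjusted p = 0.237), Birc6 by -0.37 ± 0.16 and Birc2 by -0.27 ± 0.16. Of the death receptors, Tnfrsf21 differed by -0.31 ± 0.17, Tnfrsf1a by 0.45 ± 0.26 and Fas by 1.00 ± 0.74. Among upstream regulators beside Jun, Sfn differed by -1.73 ± 0.72 and E2f1 by -0.75 ± 0.37, neither called.

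In the other comparisons the list gave a single further call. Foxo3, a FOXO transcription factor that can activate Bcl2l11, fell with age in null cerebellum, where 2.75% of all genes were called. Foxo3 1434831_a_at read 13.31, 13.56 and 13.83 on null P49 arrays and 14.07, 14.24 and 14.34 on null P21 arrays, with a difference of -0.65 ± 0.14 and a limma adjusted p of 0.0283. The call was lost without null P21 replicate 3 (0.0595), null P49 replicate 1 (0.112) or null P49 replicate 2 (0.122), and without the 3 doubtful arrays the difference was -0.50 with an adjusted p of 0.185. The Foxo3 probe sets 1434832_at and 1450236_at were not called for age in null cerebellum. For 1434831_a_at the age difference in wild-type cerebellum was -0.07 ± 0.14. Its interaction was -0.58 ± 0.20 with a limma adjusted p of 0.485, so the fall was not shown to differ between genotypes. At P49 Foxo3 1434831_a_at differed between genotypes by -0.13 ± 0.14.

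These arrays measured RNA of whole cerebellum, where fewer cells of a type and less RNA per cell cannot be told apart, and marker RNA of several cell types differed with genotype at P49. Of 16 microglia and macrophage markers 13 rose and none fell in null P49 cerebellum. Their summed intensity lay between 155291 and 198019 on null P49 arrays, between 33678 and 35327 on wild-type P49 arrays, between 53942 and 64272 on null P21 arrays and between 32721 and 41857 on wild-type P21 arrays. Cx3cr1 and Csf1r, receptors that mark microglia, rose by 1.71 ± 0.32 and 1.35 ± 0.16, while the resident microglia genes P2ry12 and Tmem119 differed by 0.56 ± 0.19 and -0.22 ± 0.24 and were not called. At P21, 2 of the 16 rose in null cerebellum, and 9 of the 16 rose between P21 and P49 in null cerebellum. All 5 reactive astrocyte markers rose at P49 by their brightest probe sets, and 8 of their 10 probe sets were called higher. All 10 Purkinje cell markers with a probe set fell in the same way, and 11 of their 16 probe sets were called lower. The Purkinje sum lay between 327481 and 486602 on null P49 arrays, against 683088 to 705659 on wild-type P49 arrays. None of 7 astrocyte and Bergmann glia markers was called by its brightest probe set, with 4 positive and a median of 0.01. The summed choroid plexus markers ranged from 78094 to 207415 on null P49 arrays and from 7825 to 34464 on wild-type P49 arrays, with none of 4 called. These sums also varied widely within a group, from 7116 to 183852 on null P21 arrays and from 6038 to 186774 on wild-type P21 arrays. None of 7 granule neuron markers was called. The part of these cell types in the Bcl2l11 and Bid differences was not tested.

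Across the 12 arrays and 12392 other genes, the patterns most like Bcl2l11 1426334_a_at were those of Dock2 (r = 0.92), Lgals3 (r = 0.89) and Cacna1c (r = 0.87). Of these, Dock2 and Lgals3 rose in null P49 cerebellum, by 3.20 and 4.07 with adjusted p of 0.0238 and 2.46e-05, and Cacna1c differed by 0.40 (adjusted p = 0.555). The patterns most like Bid 1417045_at were those of Tlr6 (r = 0.90), Prss35 (r = 0.89) and Nme6 (r = 0.88), none of them called at P49 (adjusted p 0.407, 0.352 and 0.616). These correlations describe arrays that share the group differences.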

How the data were processed

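Affymetrix arrays were hybridised with biotin-labelled cerebellar RNA of 12 individual mice, per the labels' protocols. The authors deposited 1 linear intensity per probe set and array, and no source used here names the summarisation or scaling. The 2% trimmed mean was 5002 on all arrays, and array medians on the log2 scale ranged from 10.65 to 10.92. Of 22690 probe sets, 64 were controls and were left out. No pair of arrays shared more than 33 identical values. Groups were taken from the genotype and time point labels; a protocol text that gives P21 for every animal was set aside.

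Intensities were transformed as log2(intensity + 16) and quantile normalized, and no filter on dim probe sets was used. This scale understates the fold change of dim probe sets. All 22626 probe sets were fitted with 4 group means in limma 3.58.1 (R 4.3.3) with a mean-variance trend, two-sided, and Benjamini-Hochberg adjustment ran over all of them in each of 5 comparisons at a threshold of 0.05. The procedure was run on simulated data with independent noise on every array, which cannot test the effect of arrays that deviate together. Probe sets were named by the platform annotation, updated through Entrez identifiers with RefSeq genes of GRCm38.p6, and 20380 had 1 symbol, 691 several and 1555 none. The number of arrays limits the precision. Deviations of same-numbered null P49 and wild-type P49 arrays from their group means correlated at r = 0.17, 0.11 and 0.12, so the blocked fit is given beside the P49 calls; the labels name no litter or batch. For the other 5 pairs of groups at least 1 of 3 correlations was 0.1 or lower.

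The members, the gene lists and the tests were chosen with earlier results of these data known. Named were all member probe sets, from each pathway list every called gene and up to 3 genes with the smallest P49 genotype p by the brightest probe set, and the 3 genes most correlated with each called member. Alternatives were the values as deposited, median centring, pseudocounts of 1 and 64, a filter, 1 probe set per gene, no trend, the arrays of the 2 groups alone, a replicate block, Xist as a covariate, and leaving out the doubtful arrays or each array in turn.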

Additional observations from a re-analysis of the deposited data

How the results depend on the processing

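The count of 2 members called for genotype at P49 was also 2 with values as deposited, median centring and a pseudocount of 64. It was 1 without the mean-variance trend, where Bcl2l11 1426334_a_at kept its call. It was also 1 with the arrays of the 2 groups alone, where both original calls were lost and Bcl2l11 1456005_a_at was called instead. It was 0 with a pseudocount of 1, with the Xist level as a covariate, with a filter at the 40th percentile (17 members tested) and with 1 filtered probe set per gene (6 members tested); both filters removed the 2 called probe sets themselves. Leaving out each array in turn gave 0 to 3. The calls lie near the threshold, with adjusted p from 0.0175 to 0.196 for Bcl2l11 1426334_a_at and from 0.032 to 0.216 for Bid 1417045_at over 21 alternatives each, lost in 14 and 17 of them. No difference followed across alternatives reversed, and no member was called in the other 4 comparisons under any alternative run. Foxo3 lost its call in 7 of 23 alternatives, with adjusted p from 0.00531 to 0.185, and Jun kept its call in all 23.

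With the replicate number as a block, 0 members were called at P49, and the adjusted p was 0.0851 for Bcl2l11 1426334_a_at and 0.0916 for Bid 1417045_at. Of the other pathway genes called, Jun (0.00159) and Foxo3 (0.0141) passed with the block too. Both called probe sets are dim, and whether they lie above background is not known.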
